A study of Oryctolagus cuniculus with 17 samples.

Results

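The genes described here are 9 marker genes of lymphocytes, 6 of T cells (CD3E, CD3D, CD2, LCK, IL7R and CCR7) and 3 of B cells (CD79A, CD79B and MS4A1). They were looked up by their human gene name in a table of read counts from the lungs of preterm rabbit pups, and where a name stood on several lines the line with the highest total was kept. The table held 13827 genes and gave 8 of the 9, all of which passed the count filter and were tested. CD79A had no line under its name and is not analysed here. The pups were New Zealand White rabbits, delivered by C-section before term, fed a milk replacer and kept in incubators in 95% oxygen (hyperoxia, HT) or 21% oxygen (normoxia, NT). Lungs were collected on postnatal day 3, 5 or 7, with 3 samples each in HT3, HT7, NT3, NT5 and NT7 and 2 samples in HT5. Every sample was a homogenate of the whole right lung, so that lymphocytes were measured within all other lung cells, and every pup of either group was preterm and formula-fed. The labels do not say whether pups of a group came from 1 litter, and p-values therefore measure the spread between these samples only.

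T and B lymphocytes recognize antigen through surface receptors that cannot signal by themselves. In T cells the receptor is held in a complex with the CD3 chains, among them the products of CD3E and CD3D, whose intracellular motifs are phosphorylated by the kinase LCK. CD2 is an adhesion and co-stimulatory molecule of T and natural killer cells, IL7R is the receptor chain for the survival cytokine interleukin 7, and CCR7 is the chemokine receptor that guides naive T cells and mature dendritic cells to lymphoid tissue. In B cells the immunoglobulin is held by the signalling pair CD79A and CD79B, and MS4A1 encodes the surface protein CD20. CD2, IL7R and CCR7 are also made by cells other than T cells, which bulk RNA cannot separate.

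Positions are those of the table, on the rabbit assembly OryCun2.0 that the submitters' processing notes name. CD3E (ENSOCUG00000001855) and CD3D (ENSOCUG00000000438) lie next to each other on the unplaced scaffold GL018782, at 376032 to 390796 and at 403446 to 405688, on opposite strands and 12649 bases apart. CD2 (ENSOCUG00000008474) lies on chromosome 13 at 47552454 to 47564903, LCK (ENSOCUG00000003668) on scaffold GL018704 at 5907643 to 5933340, IL7R (ENSOCUG00000011402) on chromosome 11 at 57148999 to 57174880, and CCR7 (ENSOCUG00000025569) on chromosome 19 at 41676086 to 41685430. Both B cell genes have a locus of their own, CD79B (ENSOCUG00000004345) on chromosome 19 at 48736021 to 48738672 and MS4A1 (ENSOCUG00000007941) on chromosome 1 at 193048544 to 193054455. None of the 8 genes shared its counts with another annotated gene. CD3E and CD3D each had a second line on scaffold GL018823, with 62 and 86 counts over all samples against 549 and 215 on the lines kept, and how reads common to both copies were assigned is not given in the sources used here.

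Most of the 8 genes had few counts. CD3D, CD2, CCR7, CD79B and MS4A1 had 77 counts or fewer in every sample, and IL7R, the gene with the most counts, had 75 to 224. Levels are given as CPM (counts scaled to a common library size with edgeR's TMM factors), and 3 counts were worth 0.151 to 0.206 CPM. The effective library sizes were between 14544632 and 19845253 counts. Surfactant gene SFTPC, a marker of alveolar type 2 cells, lay between 4030 and 12300 CPM in every sample, as a check of the tissue. NT5 replicate 1 stood apart, with 39.7 CPM summed over the 6 T cell genes against 15.5 and 17.3 CPM in the other NT5 samples, and NT3 replicate 1 had the lowest sum of all samples, 8.68 CPM.

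**Figure D1:**
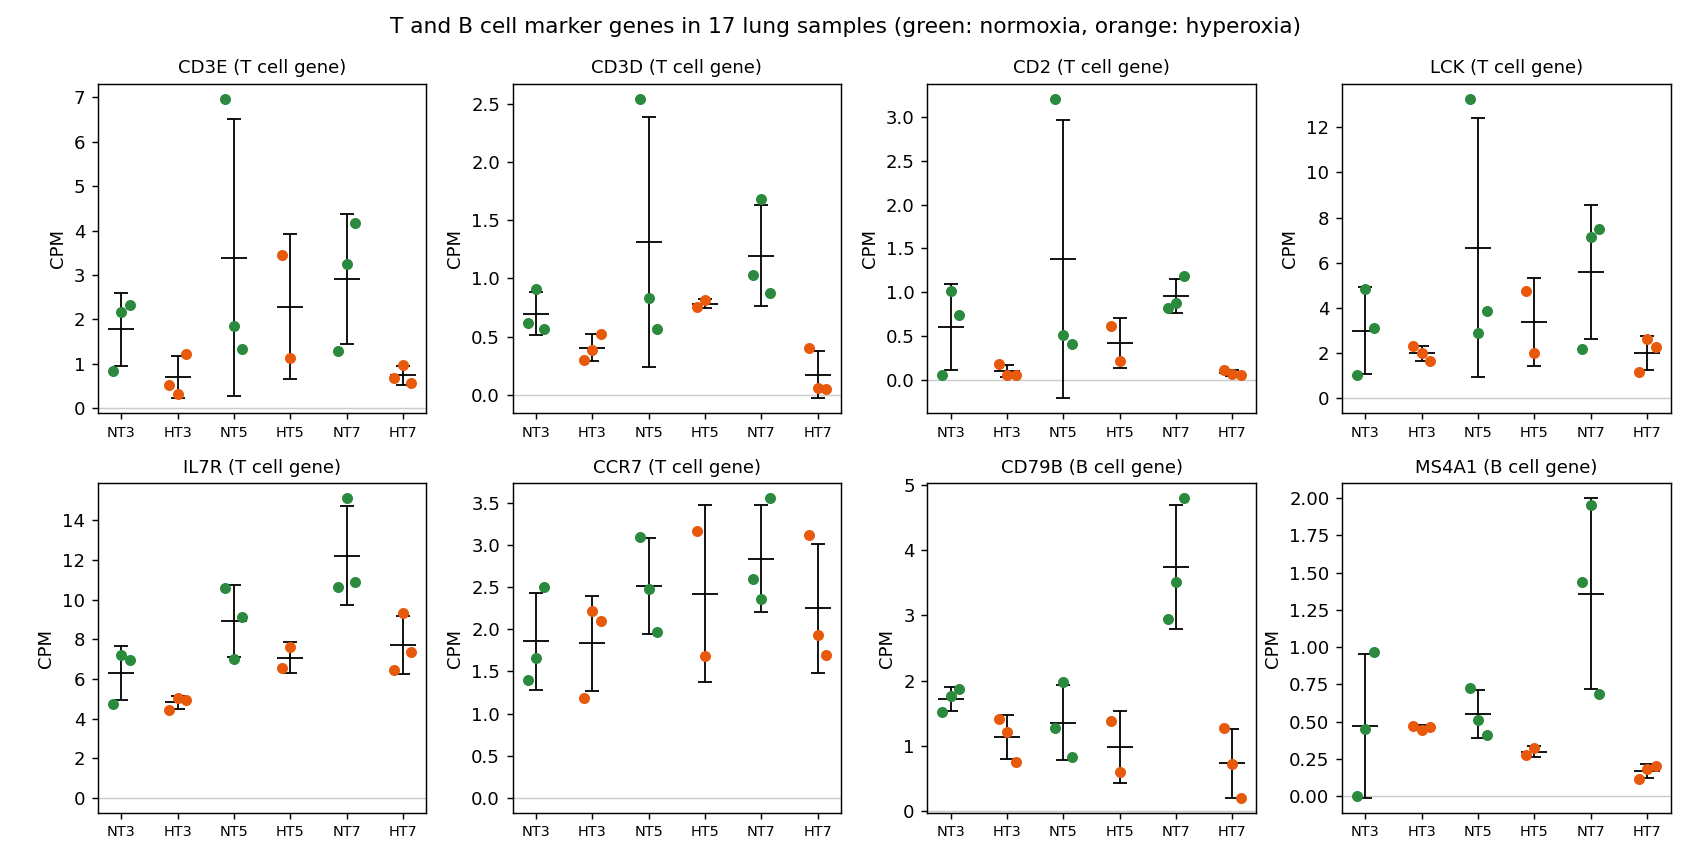
Level of each of the 8 marker genes (CPM, vertical axis, a scale of its own per gene) in each sample of the 6 groups (horizontal axis), with green points for normoxia, orange points for hyperoxia and a horizontal line with bars for the mean and SD of a group. The 3 HT7 samples lie below all 3 NT7 samples in CD3E, CD3D, CD2, IL7R, CD79B and MS4A1, and the single high NT5 point in CD3E, CD3D, CD2 and LCK is replicate 1.

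On day 7, 6 of the 8 genes were downregulated in hyperoxia (adjusted p under 0.05 in edgeR's quasi-likelihood test with Benjamini-Hochberg adjustment over all genes tested), 4 of 6 T cell genes and both B cell genes. In the same comparison 23.7% of all genes tested were lower. A DEG was defined by an adjusted p under 0.01 and a log2FC above 2 or below -2, and CD3D, CD79B and MS4A1 were downregulated DEGs, where 2.84% of all genes were. Which genes met these stricter thresholds depended on the fit, a count added after seeing the data. They were CD3D, CD2, CD79B and MS4A1 with DESeq2, CD3D, CD2 and CD79B with the replicate block, and CD2 and MS4A1 with the samples of day 7 alone. With single samples left out, 3 genes met them without NT7 replicate 3, 2 without HT7 replicate 1 or NT7 replicate 1, 1 (CD79B) without HT7 replicate 2 or NT7 replicate 2, and 0 without HT7 replicate 3, when the log2FC of CD79B was -1.89 and CD3D, CD2 and MS4A1 had an edgeR adjusted p of 0.0269, 0.0472 and 0.0189. The samples of the groups did not overlap in these 6 genes, where 27.2% of all genes were lower without overlap. All 8 log2FC were negative, as were 50.4% of those of all genes. The median log2FC of the 8 genes was -2.16, that of all genes -0.00782. Fewer lymphocytes and less of these transcripts per lymphocyte cannot be told apart in homogenized lung.

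Among the genes of the CD3 complex, CD3E measured 0.692, 0.968 and 0.564 CPM in HT7 and 1.30, 3.24 and 4.17 CPM in NT7. Its log2FC was -1.97 (standard error 0.708, edgeR adjusted p = 0.0325), 3.92-fold lower in hyperoxia. NT7 replicate 1 lay closest to the hyperoxia samples, and the groups did not overlap. CD3D measured 0.404, 0.0605 and 0.0512 CPM in HT7, from 7, 1 and 1 counts, and 1.03, 1.69 and 0.872 CPM in NT7. Its log2FC was -2.76 (standard error 0.705, edgeR adjusted p = 0.00494). HT7 replicate 1 held most of the CD3D reads of its group and still lay below every NT7 sample, and without it the log2FC of CD3D was -4.25. With both lines of each gene added together, an alternative chosen after seeing the data, CD3E had a log2FC of -2.0 (edgeR adjusted p = 0.0206) and CD3D of -2.95 (edgeR adjusted p = 0.00245).

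CD2 had the most negative log2FC of the marker genes on day 7 in the main fit. Without HT7 replicate 1 the log2FC of CD3D (-4.25) was below that of CD2 (-3.95). CD2 counts were 2, 1 and 1 in HT7 and 12, 13 and 19 in NT7, which is 0.115, 0.0605 and 0.0512 CPM against 0.820, 0.877 and 1.18 CPM. With so few counts the fold depends on counting error, and the ratio of the summed counts, scaled to library size, was 0.0775 with an exact 95% interval from 0.0202 to 0.213. This interval covers counting error only, and because the libraries have no molecular identifiers their reads are not independent molecules. The log2FC of CD2 was -3.56 (standard error 1.05, edgeR adjusted p = 0.0118). The groups did not overlap.

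LCK, the kinase that acts on the CD3 chains, did not pass the test on day 7. It measured 1.15, 2.60 and 2.25 CPM in HT7 and 2.19, 7.15 and 7.48 CPM in NT7, with a log2FC of -1.48 (standard error 0.653, edgeR adjusted p = 0.0749). NT7 replicate 1 lay among the hyperoxia samples, and 2 normoxia samples lay well above them. The 95% interval of the log2FC ran from -2.88 to -0.0891. LCK passed with DESeq2 (log2FC -1.49, adjusted p = 0.0403) and, in edgeR, without NT7 replicate 1 (-1.86, adjusted p = 0.0342). It also passed in edgeR when samples were blocked by replicate number (adjusted p = 0.0276).

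IL7R and CCR7 had the smallest differences of the T cell genes on day 7. IL7R measured 6.46, 9.31 and 7.38 CPM in HT7 and 10.7, 15.1 and 10.9 CPM in NT7, without overlap. IL7R was 1.58-fold lower in hyperoxia (log2FC -0.66, standard error 0.221, edgeR adjusted p = 0.0222). CCR7 measured 3.11, 1.94 and 1.69 CPM in HT7 and 2.60, 2.36 and 3.55 CPM in NT7, and its groups overlapped. The log2FC of CCR7 was -0.34 with a 95% interval from -1.11 to 0.43 (edgeR adjusted p = 0.459), so a decrease as large as that of IL7R is within the interval.

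Both B cell genes were lower in hyperoxia than in normoxia on day 7. CD79B, the signalling partner in the B cell receptor, measured 1.27, 0.726 and 0.205 CPM in HT7 (from 22, 12 and 4 counts) and 2.94, 3.51 and 4.8 CPM in NT7 (from 43, 52 and 77 counts). It was 5.12-fold lower in hyperoxia (log2FC -2.36, standard error 0.516, edgeR adjusted p = 0.00174), the lowest adjusted p of the 8 genes. The lowest normoxia sample was above the highest hyperoxia sample by more than the spread of either group, which was 0.532 CPM in HT7 and 0.952 CPM in NT7 (SD, n = 3). MS4A1 measured 0.115, 0.181 and 0.205 CPM in HT7, from 2, 3 and 4 counts, and 1.44, 1.96 and 0.685 CPM in NT7, from 21, 29 and 11 counts. The ratio of its summed counts was 0.126 (exact 95% interval 0.0549 to 0.255), and its log2FC was -2.96 (standard error 0.774, edgeR adjusted p = 0.00573). The 3 hyperoxia samples of MS4A1 lay close together and the normoxia samples were spread over a wider range above them.

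CD3D, CD2, CD79B and MS4A1 passed the test whichever of the 6 samples of day 7 was left out. The calls of CD3E and IL7R were lost in some of these fits, with a log2FC that stayed between -2.32 and -1.61 in CD3E and between -0.81 and -0.48 in IL7R. The number of genes downregulated was 4 without HT7 replicate 1, without HT7 replicate 3 or without NT7 replicate 2, when neither CD3E nor IL7R passed, and 5 without NT7 replicate 3, when CD3E did not pass (log2FC -1.61, edgeR adjusted p = 0.113). It was 7 without NT7 replicate 1.

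**Figure D2:**
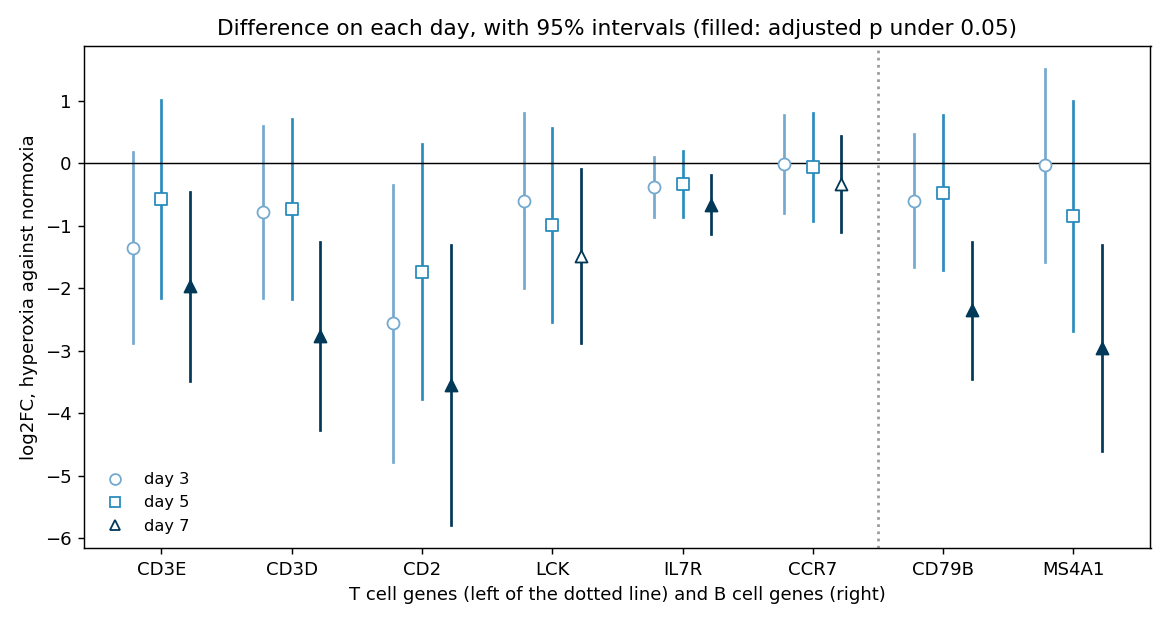
Difference between hyperoxia and normoxia (log2FC, vertical axis) of each marker gene (horizontal axis, T cell genes left and B cell genes right of the dotted line) on days 3, 5 and 7, with lines for the 95% interval and filled symbols for an adjusted p under 0.05. All 24 differences lie below 0, and the 6 filled symbols are all of day 7.

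On days 3 and 5 none of the 8 genes passed the test, while 0.517% of all genes tested on day 3 and 15.4% on day 5 were lower in hyperoxia. At an unadjusted p under 0.05 the count was 1 of 8 on day 3 (CD2, against 15.3% of all genes) and 0 on day 5 (against 43.3%), and at an adjusted p under 0.05 DESeq2 called none on either day. The 8 log2FC were all negative on both days, where 49.9% (day 3) and 51.4% (day 5) of all genes had a negative log2FC. Their median was -0.599 on day 3 and -0.653 on day 5. On both days the 95% interval of the log2FC held the day 7 value in CD3E, CD2, LCK, IL7R and CCR7 and did not hold it in CD3D, CD79B and MS4A1.

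On day 3, CD2 counts were 3, 1 and 1 in HT3 and 1, 20 and 13 in NT3. NT3 replicate 1 lay at the level of the hyperoxia samples and the other normoxia samples far above it. The count ratio of CD2 was 0.156 (exact 95% interval 0.0476 to 0.401) and its log2FC -2.57 (standard error 1.04, edgeR adjusted p = 0.246). CD3E measured 0.532, 0.332 and 1.23 CPM in HT3 and 0.840, 2.17 and 2.33 CPM in NT3, with overlap through NT3 replicate 1 (log2FC -1.35, standard error 0.714, edgeR adjusted p = 0.389). CD3D and CD79B were the 2 genes whose HT3 samples all lay below the NT3 samples, where 13.9% of all genes did so. CD79B measured 1.42, 1.22 and 0.759 CPM in HT3 and 1.51, 1.76 and 1.88 CPM in NT3, with a log2FC of -0.60 (standard error 0.498, edgeR adjusted p = 0.608). MS4A1 had 8 counts in each HT3 sample and 0, 9 and 17 counts in NT3. All HT3 samples thus lay within the range of NT3. Its log2FC was -0.03 (standard error 0.724) and turned to 0.254 when samples were blocked by replicate number (edgeR adjusted p = 0.909).

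On day 5 the normoxia samples were widely scattered in the T cell genes, and NT5 replicate 1 was the highest sample of the whole series in CD3E, CD3D, CD2 and LCK. LCK measured 4.74 and 2.00 CPM in HT5 and 13.3, 2.86 and 3.88 CPM in NT5, with overlap (log2FC -0.99, standard error 0.725, edgeR adjusted p = 0.313). CD3E measured 3.44 and 1.14 CPM in HT5 and 6.97, 1.85 and 1.34 CPM in NT5. Without NT5 replicate 1 the log2FC of CD3E turned from -0.57 to 0.51, that of CD3D from -0.73 to 0.18 and that of CCR7 from -0.06 to 0.12. In the same fit the log2FC of LCK moved from -0.99 to -0.0113, that of CD2 from -1.74 to -0.173 and that of IL7R from -0.33 to -0.19. None of these passed the test in either fit. The same sample held 15.8 CPM over the listed genes of natural killer and cytotoxic cells, against 4.60 and 3.56 CPM in the other NT5 samples. Its macrophage genes summed to 1097 CPM against 467 and 402 CPM and its general leukocyte genes to 1084 CPM against 534 and 576 CPM (sums over genes with a locus of their own, without CD68 and ITGB2), while its B cell genes (2.00 CPM against 2.48 and 1.24 CPM) lay between those of the other samples. MS4A1 was the 1 gene without overlap on day 5, where 29.2% of all genes lay lower without overlap, with 0.275 and 0.325 CPM in HT5 and 0.727, 0.509 and 0.413 CPM in NT5 (log2FC -0.85, standard error 0.861, edgeR adjusted p = 0.479).

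Whether the response itself grew from day 3 to day 7 was tested as the difference of the effects of both days. No marker gene passed (20.5% of all genes did in either direction), and 2 had an unadjusted p under 0.05, against 34.9% of all genes. These were the B cell genes, MS4A1 with a further change of -2.92 on the log2 scale (standard error 1.07, edgeR adjusted p = 0.065) and CD79B with -1.76 (standard error 0.712, edgeR adjusted p = 0.0935). In the T cell genes this difference ranged from -1.97 in CD3D to -0.27 in IL7R. A larger decrease on day 7 than on day 3 is thus not shown for any single gene.

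In normoxia the levels of NT7 exceeded those of NT3 in all 8 genes, with a median log2FC of 0.832, and none passed the test, which called 0% of all genes in this comparison. At an unadjusted p under 0.05 there were 3, IL7R (log2FC 0.95, standard error 0.222, edgeR adjusted p = 0.31), CD79B (1.12, edgeR adjusted p = 0.739) and MS4A1 (1.51, edgeR adjusted p = 0.782), against 6.27% of all genes. CD79B was at 1.72 ± 0.187 CPM in NT3, 1.36 ± 0.578 CPM in NT5 and 3.75 ± 0.952 CPM in NT7 (SD, n = 3 each), so NT3 and NT5 did not differ beyond their spread and NT7 lay above both. In hyperoxia, 1 of the 8 genes passed the test between HT3 and HT7. IL7R rose from HT3 to HT7 (log2FC 0.68, standard error 0.225, edgeR adjusted p = 0.0233, where 22.3% of all genes rose), from 4.81 ± 0.328 to 7.72 ± 1.46 CPM (SD, n = 3). In the same comparison the log2FC was -0.64 in CD79B (edgeR adjusted p = 0.342), -1.42 in MS4A1 (edgeR adjusted p = 0.174), -1.21 in CD3D (edgeR adjusted p = 0.206) and -0.33 in CD2 (edgeR adjusted p = 0.86). MS4A1 was at 0.461 ± 0.0159 CPM in HT3 and 0.167 ± 0.0464 CPM in HT7 (SD, n = 3), without overlap. CD3E (0.697 ± 0.469 and 0.741 ± 0.206 CPM) and LCK (1.98 ± 0.337 and 2.00 ± 0.755 CPM) had like means in HT3 and HT7. For CD3E and LCK the day 7 difference therefore lay between hyperoxia samples at about their day 3 level and normoxia samples with higher means than on day 3. None of the 8 genes passed the test between HT5 and HT3 (22.8% of all genes did) or between HT7 and HT5 (1.45% did).

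The T cell genes were set against the B cell genes by the mean log2FC of each kind, as a description without a test. On day 3 the mean was -0.951 for the 6 T cell genes and -0.317 for the 2 B cell genes, on day 5 -0.737 and -0.658, and on day 7 -1.80 and -2.66. T minus B was therefore -0.634, -0.079 and 0.862. In log2 CPM of single samples, the pooled SD of T minus B within groups was 0.438, with group values from 0.203 in HT5 to 0.782 in NT5. This SD is a spread between samples and not the error of the differences of log2FC. On day 3 T minus B was -0.0305 in the fit of that day's samples alone, in which CD2 and MS4A1 were not tested, and it ran from -1.06 without NT3 replicate 3 to -0.366 without NT3 replicate 2. On day 7 the B cell genes had the more negative mean in every fit without 1 sample (T minus B 0.735 to 1.04), and CD3D and CD2 were the T cell genes with a larger decrease than CD79B. Without IL7R and CCR7, left out after their values were seen, T minus B was -1.01, -0.35 and 0.215, and on day 7 the other 4 T cell genes had a mean of -2.44.

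In single samples T minus B was taken as the mean log2 CPM of the T cell genes minus that of the B cell genes. Its size depends on gene lengths and is compared between samples only. It was -0.0106, 0.326 and 0.798 in NT7 and 1.05, 1.14 and 1.52 in HT7, so the HT7 samples all lay above the NT7 samples. Without IL7R and CCR7 it was -0.672, -0.0925 and 0.358 in NT7 and 0.0657, 0.138 and 0.522 in HT7, and the groups overlapped. On day 3 it was 1.20, 1.18 and 0.516 in NT3 and 0.100, 0.208 and 0.747 in HT3, with overlap. In NT5 the values were 2.35, 0.806 and 1.39 and in HT5 1.71 and 1.42, with overlap.

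**Figure D3:**
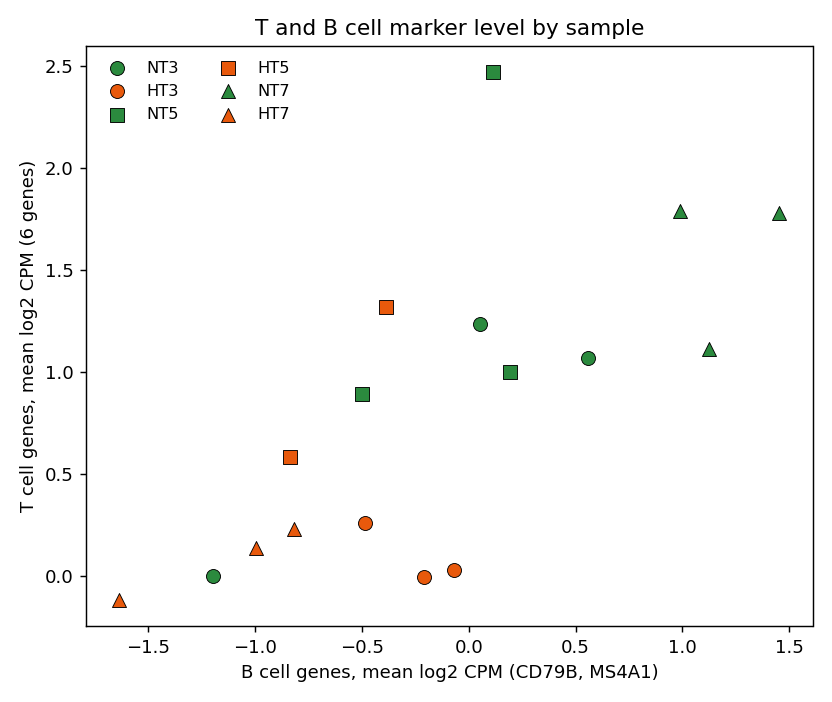
Mean log2 CPM of the 6 T cell genes (vertical axis) against that of CD79B and MS4A1 (horizontal axis) in each of the 17 samples, with the colour giving oxygen and the symbol giving the day. The NT7 triangles lie at the right, with B cell means from 0.99 to 1.46, the HT7 triangles at the lower left, with B cell means from -1.64 to -0.818, and NT5 replicate 1 at the top.

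Over the 17 samples, the Pearson correlation of log2 CPM was 0.886 between CD3E and CD2, 0.855 between CD2 and LCK and 0.842 between CD3E and LCK, the highest of all pairs of the 8 genes. The samples share their groups, and with group means taken out the values were 0.757, 0.802 and 0.786. CD3E and CD3D, both chains of the CD3 complex, had 0.734 (0.473 within groups), and CD3D and LCK 0.57 (0.246 within groups). CD79B and MS4A1 had 0.536, and -0.0596 within groups. Of 11471 other genes, those whose log2 CPM was most like the mean of the T cell genes over these samples were the T cell receptor constant gene TRBC2 (r = 0.953), CD5 (0.919), CD4 (0.890), TRAF3IP3 (0.890) and MYO9B (0.877), with values within groups from 0.778 in CD5 to 0.882 in MYO9B. Those most like the mean of the 2 B cell genes were THEMIS2 (0.881), PNRC2 (0.812), C6orf62 (0.809), TEF (0.8) and NRROS (0.786). With group means taken out these were 0.635, 0.677, 0.142, 0.507 and 0.492 in the same order. TRBC2, CD5 and CD4 are T cell genes, whereas no gene of the list of further B cell genes stood among the 5 for B cells.

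Further T cell genes were read from a list of 32, of which 28 were in the table and 24 were tested. On day 7, 11 of the 24 were downregulated and 1 was upregulated, where 23.7% of all genes were lower and 23.7% higher, with a median log2FC of -1.46 (the same with TRAT1 at its bound), and on day 5 there were 4 downregulated and 1 upregulated (median -0.963), where 15.4% of all genes were lower and 15.9% higher. On day 3 none of the 24 passed (median -0.618). With each sample of day 7 left out in turn, a check added after seeing the data, the number downregulated was 7 to 12, with 7 without HT7 replicate 1, HT7 replicate 3 or NT7 replicate 3. On day 5 the number was 1 without HT5 replicate 2.

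TRAT1, an adaptor of the T cell receptor complex, had 0 counts in every HT7 sample and 5, 6 and 15 counts in NT7. Set against a floor of 3 counts over the group, TRAT1 was at least 10.2-fold lower in HT7 (edgeR adjusted p = 0.000944). On day 5 it had 0 and 1 counts in HT5 and 11, 11 and 8 in NT5, a ratio of 0.052 with an exact 95% interval from 0.00128 to 0.313. The groups of TRAT1 did not overlap on either day.

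CD5, an inhibitory coreceptor of T cells, measured 0.577, 0.544 and 0.256 CPM in HT7 and 1.03, 3.37 and 3.24 CPM in NT7 (log2FC -2.47, standard error 0.589, edgeR adjusted p = 0.00319). GATA3, a transcription factor of T cell development and of helper T cells that other cells also make, measured 4.67, 5.32 and 4.10 CPM in HT7 and 14.4, 39.7 and 31.0 CPM in NT7 (log2FC -2.60, standard error 0.312, edgeR adjusted p = 1.81e-05). Neither gene overlapped between the groups. GATA3 was lower on day 5 too (log2FC -1.82, edgeR adjusted p = 0.00168), as were the T cell transcription factor TCF7 (-1.82, edgeR adjusted p = 0.00384) and the adaptor SKAP1 (-1.97, edgeR adjusted p = 0.014). TCF7 measured 42.3, 59.1 and 38.6 CPM in NT5, so NT5 replicate 1 was not its highest NT5 sample, unlike in CD3E. How much of the TCF7 level came from T cells was not tested. Chosen after their values were seen, the CD3 zeta chain gene CD247 (-1.76, edgeR adjusted p = 0.00645), the kinase gene ZAP70 that binds phosphorylated CD3 chains (-1.52, edgeR adjusted p = 0.0489, with overlap) and the helper T cell coreceptor CD4 (-2.41, edgeR adjusted p = 0.00891) were also downregulated on day 7.

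CD8B, the beta chain of the coreceptor of cytotoxic T cells, was the 1 listed T cell gene that was upregulated. CD8B (ENSOCUG00000009384, chromosome 2, 99543014 to 99558388) had 72, 66 and 119 counts in HT7 and 1, 1 and 2 counts in NT7, a ratio of 54.8 with an exact 95% interval from 21.1 to 202. On day 5 it had 111 and 129 counts in HT5 and 3, 4 and 3 counts in NT5, a ratio of 37.5 (exact 95% interval 20 to 79.1). Groups did not overlap on either day (log2FC 5.18 with edgeR adjusted p = 4.83e-06 on day 5, and 5.65 with edgeR adjusted p = 8.96e-07 on day 7). On day 3 CD8B had 11, 4 and 8 counts in HT3 and 3, 3 and 2 in NT3 (log2FC 1.57, edgeR adjusted p = 0.113). CD8A, which encodes the partner chain of the same coreceptor and lies nearby at 99592779 to 99597037, was singled out after its values were seen. Its log2FC was -0.77 on day 3, -1.22 on day 5 and -0.77 on day 7, and none passed the test (edgeR adjusted p = 0.5, 0.108 and 0.214). CD8B and CD8A thus differed in the sign of their log2FC on all 3 days, and CD8B did not move with the other T cell genes.

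**Figure D4:**
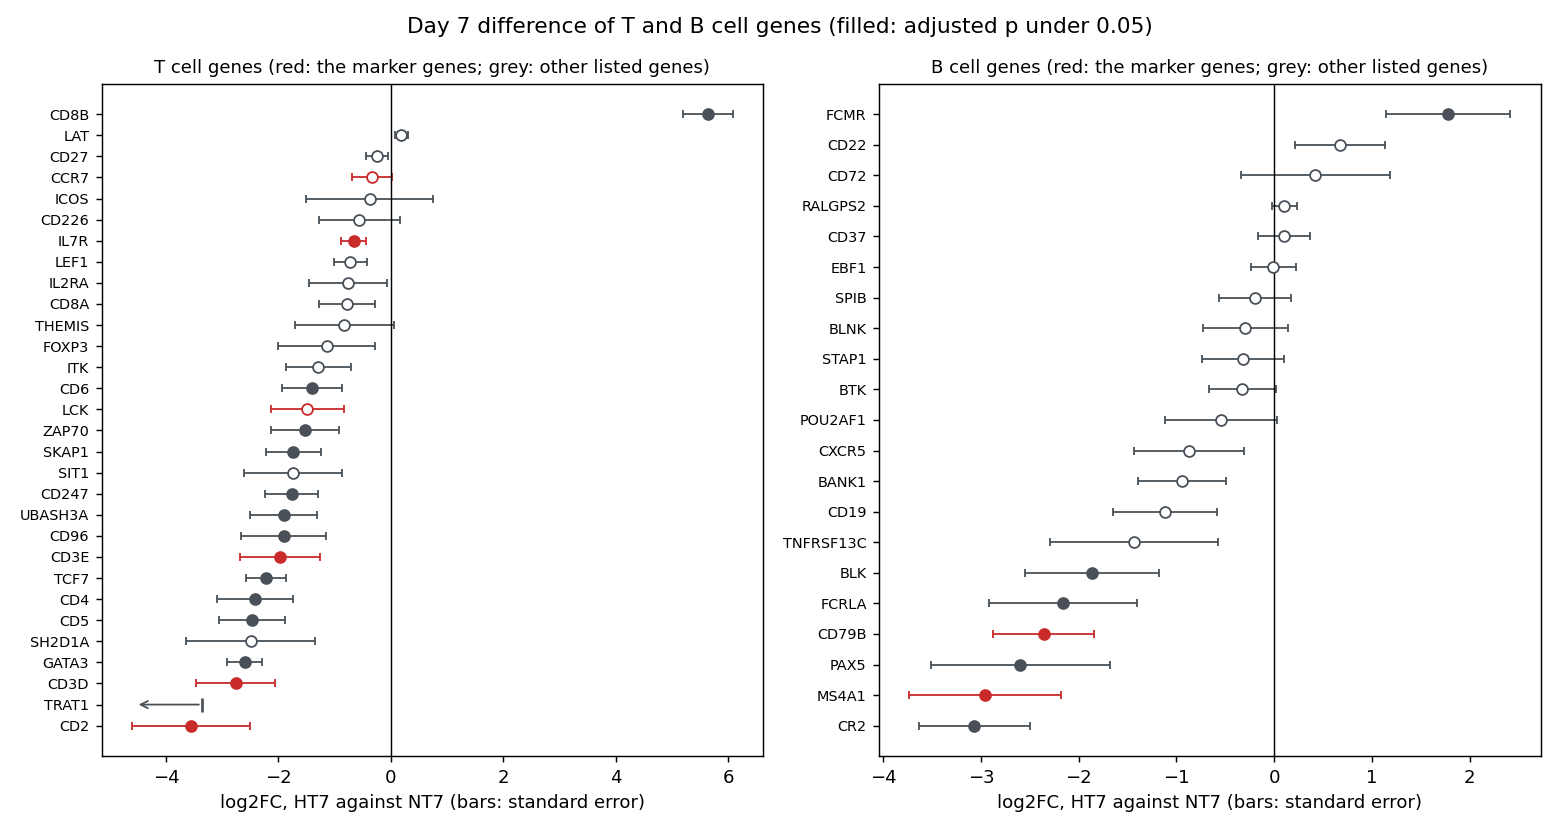
Day 7 log2FC of the T cell genes (left) and B cell genes (right), sorted by value (horizontal axis), with bars for the standard error, red for the marker genes, grey for the other listed genes and filled symbols for an adjusted p under 0.05. TRAT1, at 0 counts in HT7, is drawn as an arrow from its bound, CD8B lies alone at 5.65, and the B cell panel runs from -3.07 in CR2 to 1.78 in FCMR.

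Of 26 further B cell genes, 20 were in the table and 19 were tested. On day 7, 4 were downregulated and 1 was upregulated, with a median log2FC of -0.327. This share downregulated is no higher than the 23.7% of all genes. CR2, the complement receptor CD21 of B cells and follicular dendritic cells, measured 2.83, 2.90 and 2.82 CPM in HT7 and 9.98, 17.7 and 43.9 CPM in NT7 (log2FC -3.07, standard error 0.568, edgeR adjusted p = 0.000504). Its HT7 samples lay close together, and the NT7 samples were all higher and widely spread. The B cell transcription factor PAX5 (-2.60, edgeR adjusted p = 0.0299), FCRLA (-2.16, edgeR adjusted p = 0.0289) and the kinase BLK (-1.87, edgeR adjusted p = 0.0366) were also lower in HT7. FCMR, the receptor for IgM, measured 8.13, 15.2 and 9.94 CPM in HT7 and 2.73, 2.90 and 4.05 CPM in NT7 (log2FC 1.78, standard error 0.639, edgeR adjusted p = 0.0326). The number of B cell genes downregulated was 1 to 3 when each day 7 sample was left out, 1 without HT7 replicate 3 and 2 without HT7 replicate 2, NT7 replicate 1 or NT7 replicate 3. The number upregulated was 1 without HT7 replicate 1 and 0 in the other 5 fits. On day 5, CR2 (-1.96, edgeR adjusted p = 0.0277) and CXCR5 (-2.32, edgeR adjusted p = 0.04) were downregulated and RALGPS2 (0.91, edgeR adjusted p = 0.000398) was upregulated, where 15.4% of all genes were lower and 15.9% higher. The number downregulated on day 5 was 0 without HT5 replicate 1, HT5 replicate 2 or NT5 replicate 2 and 1 without NT5 replicate 1, when 4 were upregulated. No B cell gene of the list passed on day 3 (median 0.000682).

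Of 8 tested plasma cell genes, TNFRSF17, which encodes the survival receptor BCMA (-2.45, edgeR adjusted p = 0.00686), and DERL3 (-1.33, edgeR adjusted p = 0.00845) were downregulated on day 7. No plasma cell gene passed on days 3 and 5. The counts on day 7 in this and the lists that follow are to be read against the 23.7% of all genes that were lower and the 23.7% that were higher, and those of day 5 against 15.4% and 15.9%. Of 7 tested genes of natural killer and cytotoxic cells, the perforin gene PRF1 was downregulated on day 7 (-3.29, edgeR adjusted p = 0.031), and TBX21, the transcription factor T-bet, on day 5 (-2.73, edgeR adjusted p = 0.049). Of 15 tested genes of lymphocyte homing and survival, the chemokine receptor CXCR4 (-1.04, edgeR adjusted p = 0.0211), the endothelial adhesion molecule ICAM2 (-1.58, edgeR adjusted p = 3.91e-06) and MADCAM1 (-0.43, at a locus shared with another gene) were downregulated on day 7 and LTBR, the lymphotoxin beta receptor, was upregulated (0.62, edgeR adjusted p = 0.00204). On day 5, ICAM2 (-1.41) and MADCAM1 (-0.68) were downregulated and LTBR (0.80) and the cytokine gene TSLP (1.21, edgeR adjusted p = 0.0454) upregulated. None of the homing genes passed on day 3.

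Thymus tissue, which lies near the lung and is rich in T cells, was checked by 6 defining markers (RAG1, RAG2, PTCRA, DNTT, FOXN1 and PSMB11). Their summed level was 0 to 0.292 CPM in the 8 hyperoxia samples and 0.0517 to 0.607 CPM in the 9 normoxia samples, at most 9 counts in a sample. In NT5 replicate 1 it was 0.242 CPM, from 4 counts. Of the listed thymus genes, TBATA was lower on day 7 (-2.19, edgeR adjusted p = 0.0433).

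Other blood cell markers did not all follow the lymphocyte genes on day 7, when 23.7% of all genes were lower and 23.7% higher. Of 10 tested genes made by most leukocytes, ITGAL (-0.63, edgeR adjusted p = 0.0209) and IKZF1 (-0.75, edgeR adjusted p = 0.0419) were downregulated on day 7 and none on days 3 and 5. The summed level of those with a locus of their own (without ITGB2) on day 7 was 639.2 ± 51.3 CPM in HT7 and 870.6 ± 50.7 CPM in NT7 (SD, n = 3). Of 13 tested macrophage genes, CD163 (1.49, edgeR adjusted p = 0.026), MSR1 (1.71, edgeR adjusted p = 0.0243) and CD68 (1.21, at a locus shared with other genes) were upregulated and MARCO (-2.19, edgeR adjusted p = 0.00331) and SIGLEC1 (-0.98, edgeR adjusted p = 0.0037) downregulated. The summed level of the 12 macrophage genes with a locus of their own, which leaves out CD68, was 795.1 ± 200.1 CPM in HT7 and 755.6 ± 88.7 CPM in NT7 (SD, n = 3), a difference within the spread. The locus of CD68 had means of 1600 CPM in HT7 and 688 CPM in NT7, so that the mean of a sum with it would be higher in HT7. Of 10 tested neutrophil genes, CXCR2 (1.0, edgeR adjusted p = 0.0228) and MMP9 (1.96, edgeR adjusted p = 0.0284) were upregulated and MPO (-2.19, edgeR adjusted p = 0.0402) downregulated, and the summed level ranged from 1187 to 3628 CPM in HT7 and from 1118 to 1234 CPM in NT7. On day 5, CD163 (2.12, edgeR adjusted p = 0.0116), CD68 (0.86), CXCR2 (1.18) and the neutrophil growth factor receptor CSF3R (1.05, edgeR adjusted p = 0.0496) were upregulated and SIGLEC1 (-0.88) downregulated. The part of these cells in the lymphocyte results was not tested.

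Markers of other tissue in the sample were read as well. Of 6 lymphatic endothelial genes, LYVE1 (-0.76, edgeR adjusted p = 0.00605) and FLT4 (-1.54, edgeR adjusted p = 1.71e-06) were downregulated on day 7, after LYVE1 was upregulated on day 3 (0.93, edgeR adjusted p = 0.0408). Of 3 erythroid genes in the table, ALAS2 and SLC4A1 were downregulated on day 7 (-1.61 and -1.46). FLT4 (-1.28), ALAS2 (-1.03) and MYLPF (-0.52) were lower on day 5 too. Skeletal muscle genes other than MYLPF summed to 6.62, 324 and 41.2 CPM in HT3 against 5.23 to 8.23 CPM in NT3, and none passed the test on day 3. They summed to 294 CPM in HT5 replicate 1 and 3.84 CPM in HT5 replicate 2, and 4 muscle genes (ACTA1, MYH8, CKM and ATP2A1) were upregulated on day 5. On day 7 the muscle sum was 2.96 to 9.52 CPM in HT7 and 4.05 to 4.99 CPM in NT7, with MYLPF lower (-0.65, at a locus shared with another gene).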

How the data were processed

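Per the labels, poly(A) RNA of total right lung homogenate was made into TruSeq Stranded mRNA libraries and sequenced as paired-end reads. The authors deposited 1 table of raw counts per locus without normalization, for 17 samples. The submitters' processing notes name FastQC, STAR 2.7.10a and OryCun2.0, and the counting program is not given in the sources used here. A locus with several annotated genes stands once per gene with the same counts (8.96% to 10.1% of a sample's total), and 44 lines without a gene name (0.289% to 0.678% of counts) stayed out.

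Counts were tested in R 4.3.3 with edgeR 4.0.16 (filterByExpr, TMM, quasi-likelihood test, 6 group means, 17 samples), leaving 13142 genes tested and 685 not tested, with Benjamini-Hochberg adjustment over all of them and a threshold of 0.05. The log2FC used a prior count of 0.125, and log2 CPM a prior count of 2. All groups share 1 estimate of the spread, on which HT5, with 2 samples, depends. Alternatives were DESeq2 1.42.0, RLE factors, no count filter, 1 line per locus, the samples of the day alone, the replicate block, a prior count of 2, medians in place of means, and leaving out each sample. Added after seeing the data were summed CD3 lines, T cell genes without IL7R and CCR7, sums over genes with a locus of their own, list counts with each sample left out, and the DEG thresholds in every fit.

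The marker genes and the gene lists (T cell, B cell, plasma cell, natural killer and cytotoxic, homing, thymus, leukocyte, macrophage, neutrophil, lymphatic, erythroid and skeletal muscle) were chosen from general knowledge with earlier results of these data known. Named are all marker genes and, of each list and day, the genes past the threshold, or where more than 5 passed the 3 that rose most and the 3 that fell most. 1 gene named by this rule is not reported here. Genes of like pattern are the 5 with the highest Pearson correlation and a mean log2 CPM of at least 0. Exact intervals of count ratios condition on the summed counts.

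For samples with the same replicate number, the correlations of their deviations from the group means were 0.166, 0.131 and 0.199 on day 3. They were 0.264 and 0.141 on day 5 and 0.174, 0.109 and 0.0695 on day 7. Correlations between samples with different numbers are not given here. What the numbers stand for is not given in the sources used here. Scripts were tested on simulated data. Figures were drawn with matplotlib 3.10.9 and tables with pandas 2.3.3 in Python 3.11.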

Additional observations from a re-analysis of the deposited data

Results flagged for a closer look

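The effect of hyperoxia on day 7 was tested against that on day 3, and 20.5% of all genes passed this test of the difference itself. Most of the genes below were named because they had passed the test on day 5 or 7, so their number is not to be read against that share or against the marker genes. Of the T cell genes 4 passed. In the coreceptor gene CD8B the day 7 effect exceeded that of day 3 by 4.08 on the log2 scale (standard error 0.692, edgeR adjusted p = 0.00203) and the day 5 effect exceeded it by 3.60 (standard error 0.654, edgeR adjusted p = 0.0248), with every hyperoxia sample above every normoxia sample on all 3 days. In the transcription factor gene GATA3 the day 7 difference was -1.84 (standard error 0.418, edgeR adjusted p = 0.00832), and in the CD3 zeta chain gene CD247 it was -2.09 (standard error 0.646, edgeR adjusted p = 0.0341). In the adaptor gene TRAT1 the fitted difference was -6.37 (standard error 1.52, edgeR adjusted p = 0.0124), a value that depends on the prior count because HT7 held no TRAT1 counts.

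In the 5 genes most like the B cell genes, the day 7 effect minus that of day 3 was -1.32 in THEMIS2, -0.20 in PNRC2, -0.47 in C6orf62, -1.74 in TEF and -1.01 in NRROS. These were chosen for their correlation with CD79B and MS4A1 over the same samples, and the values are a description without a test. Among the homing genes the difference was -1.44 in CXCR4 (edgeR adjusted p = 0.045) and -1.32 in ICAM2 (edgeR adjusted p = 0.00166), and ICAM2 differed between days 5 and 3 too (-1.15, edgeR adjusted p = 0.031). The lymphatic genes gave -1.69 in LYVE1 (edgeR adjusted p = 0.00191) and -1.18 in FLT4 (edgeR adjusted p = 0.00148), and FLT4 gave -0.92 for day 5 against day 3 (edgeR adjusted p = 0.0371). The macrophage genes gave 0.94 in CD68 (at a locus shared with other genes, edgeR adjusted p = 0.0216) and -2.24 in MARCO (edgeR adjusted p = 0.0402), and the erythroid gene ALAS2 gave -1.75 (edgeR adjusted p = 0.0115).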

How the results depend on the processing

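The number of marker genes called was 0 on days 3 and 5 in every alternative run, and on day 7 it was 5 with the samples of that day alone (IL7R not called, log2FC -0.65 with an edgeR adjusted p of 0.0593), 6 or 7 in the other alternatives, and 4 to 7 with each sample left out. LCK was called on day 7 with DESeq2 (log2FC -1.49, adjusted p = 0.0403) and with the replicate block (-1.40, edgeR adjusted p = 0.0276). The block changed no other call at an adjusted p under 0.05, and it turned MS4A1 on day 3 to 0.254 (edgeR adjusted p = 0.909). T minus B was -0.0305 on day 3 in the fit of that day's samples alone, in which CD2 and MS4A1 did not pass the count filter, and 0.215 on day 7 without IL7R and CCR7. With each sample left out, T minus B ran from -1.06 to -0.366 on day 3, from -0.477 to 0.625 on day 5 and from 0.735 to 1.04 on day 7. Differences that changed sign when a sample was left out were those of CCR7 (-0.18 to 0.258) and MS4A1 (-0.607 to 0.96) on day 3 and of CD3E (-1.57 to 0.509), CD3D (-1.10 to 0.177), CCR7 (-0.579 to 0.319) and CD79B (-1.17 to 0.0113) on day 5, none called in any of these fits, and the cause was not tested. Counts were low in CD2, CD3D and MS4A1, with 1 to 7 in each HT7 sample, which limits the precision of their folds.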
